A study of Mus musculus with 6 samples.

Results

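The subunits of the Polycomb repressive complexes were followed in E14 mouse embryonic stem cells, an established line, with and without a knockdown of Tdg. A set of 32 genes was chosen by name for its place in these complexes, and each gene was read from the probe set with the highest mean signal among those annotated to that gene alone. Of the 32, 31 had such a row, out of 19938 named genes on the array. Cbx6 had none: its 1 row is shared with Npcd and Nptxr, and it was left out of all counts of signal. RNA was measured on Affymetrix whole-transcript arrays, 3 for the control group and 3 for the Tdg knockdown group. Cells of both groups grew on 0.1% gelatin in medium with 15% serum and leukemia inhibitory factor at 1000 units/ml. Per the treatment protocol given for both groups, lentiviral vectors were applied at a multiplicity of 10, and infected cells were selected from 48 h onwards with 2 ug/ml puromycin. The labels name neither the sequence used against Tdg nor the insert of the control vector. Whether replicate arrays stem from separate cultures is not stated either, so p-values rest on a spread that may be technical.

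Polycomb proteins keep developmental genes silent. Polycomb repressive complex PRC2 methylates a lysine of histone H3 through EZH1 or EZH2, together with EED, SUZ12 and the histone-binding proteins RBBP4 or RBBP7. PRC1 attaches ubiquitin to histone H2A through RING1 or RNF2 (RING1B), each paired with one PCGF protein that sets the kind of PRC1. Canonical PRC1 reads the PRC2 mark through a CBX protein and compacts chromatin through PHC proteins, while variant PRC1 carries RYBP or YAF2 in place of CBX. In embryonic stem cells both complexes sit mainly at CpG islands of silent developmental regulators, and KDM2B, which binds unmethylated CpG, brings the PCGF1 form of PRC1 there. Tdg encodes thymine DNA glycosylase, which excises oxidised forms of methylated cytosine made by TET enzymes at such CpG sites.

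Tdg signal, read from 4 rows shared with the pseudogene Tdg-ps2, was 11.12, 11.20 and 11.10 in the control arrays and 8.24, 8.16 and 7.93 in the knockdown arrays (log2), a fall to 12.2% of the control level (limma adjusted p 8.79e-05; exact permutation p 0.1, the smallest that 3 against 3 allows). The 14 embryonic stem cell markers checked had control means from 10.40 to 13.35, against array medians of 7.41 to 7.48, and log2 differences of -0.10 to 0.10, with 0 past the threshold. Knockdown replicate 3 stood apart from the other 5 arrays on the first principal component, at 31.0 against -17.5 to 5.17. In these bulk samples fewer cells of a type and less RNA per cell cannot be told apart.

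No Polycomb subunit passed the threshold between knockdown and control cells. By limma with Benjamini-Hochberg adjustment over all 19938 genes, 0 of 31 members had an adjusted p under 0.05, where 0.792% of all genes did. At an unadjusted p under 0.05 there were 3 members, Pcgf5 lower and Scmh1 and Cbx8 higher, which is 9.68% of the members against 12.5% of all genes (5.03% higher and 7.48% lower). The median log2 difference over the members was -0.0033, against 0.02 over all genes, and 22 of the 31 members (71.0%) differed by less than 0.1, against 55.6% of all genes. That share was 92.9% among the 14 embryonic stem cell markers. Of the lists described below, it was 72.7% among 55 partners and opposing factors and 37.0% among 54 Polycomb target genes. The median control level was 9.64 over the members and 7.97 over all genes, and its part in these shares was not tested. For 30 of the 31 the 95% interval of the difference lay wholly within a 1.5-fold change in either direction, as it did for 93.7% of all genes. Pcgf5 was the exception, with an interval from -0.64 to -0.23. With the replicate number as a block 2 members passed, Pcgf5 lower and Scmh1 higher, where 3.08% of all genes did (1.07% higher and 2.01% lower).

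**Figure D1:**
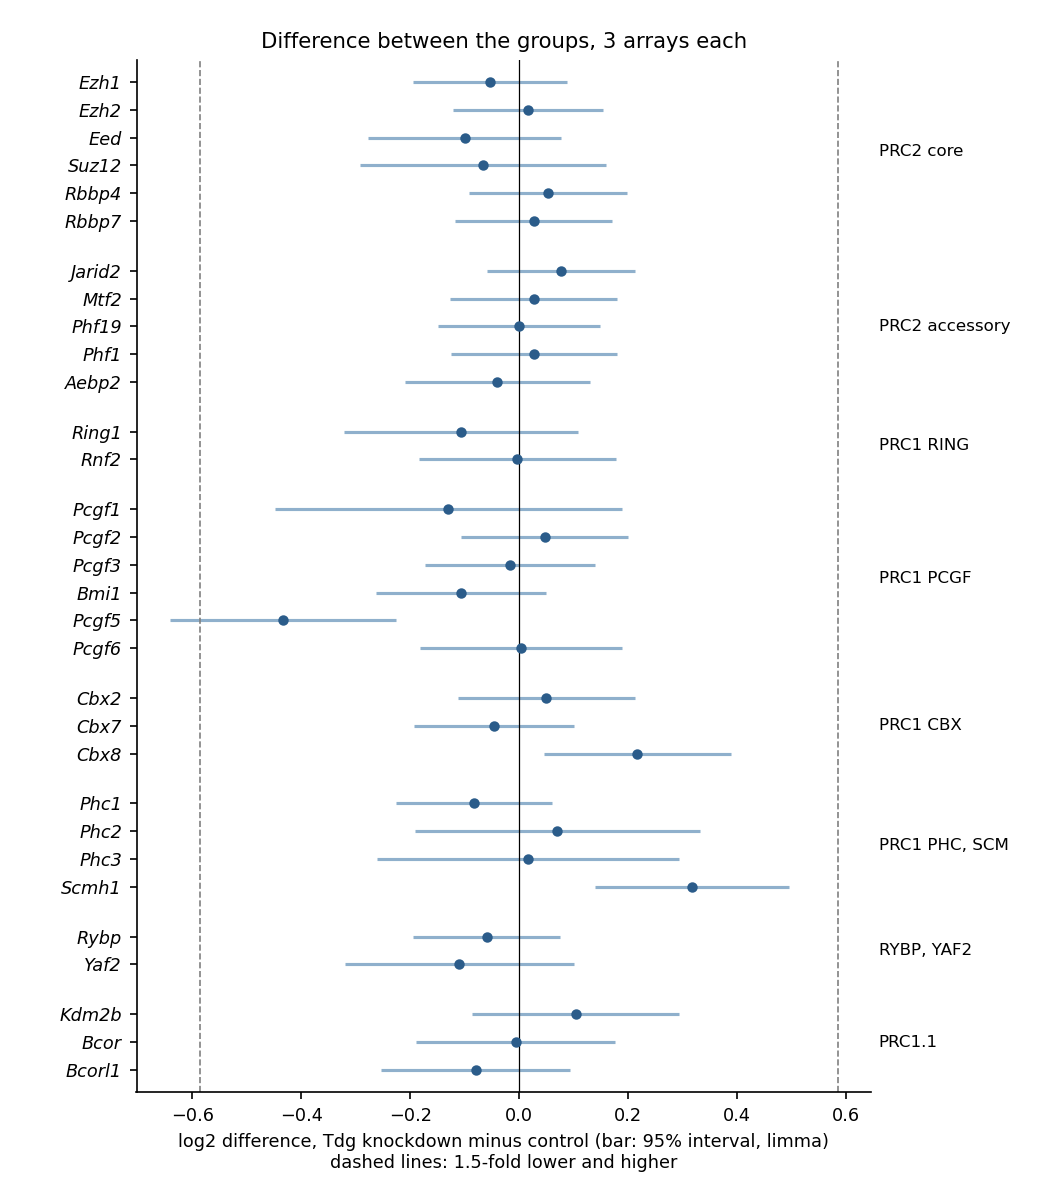
Log2 difference in signal between Tdg knockdown and control cells for 31 Polycomb subunits, grouped by complex. Points are differences of means of 3 arrays, bars are 95% intervals from limma, and dashed lines mark a 1.5-fold change. Pcgf5 (-0.43), Scmh1 (0.32) and Cbx8 (0.22) are the members whose intervals leave out 0.

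In PRC2, the catalytic subunits gave near-equal values in all arrays. Ezh2, the main PRC2 methyltransferase of dividing cells, was at 12.10, 12.07 and 12.06 in the control arrays and at 12.12, 12.11 and 12.05 in the knockdown arrays. Ezh1, its paralog with weaker activity, was at 10.75, 10.72 and 10.80 in controls and at 10.66, 10.73 and 10.72 in knockdown cells. For both genes the groups overlapped, and the differences were 0.02 ± 0.06 (SE, adjusted p 0.937) for Ezh2 and -0.05 ± 0.06 (adjusted p 0.791) for Ezh1. The intervals ran from -0.12 to 0.15 and from -0.20 to 0.09.

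The other core PRC2 genes also overlapped between the groups. Suz12, the scaffold that holds the complex together, was at 12.23, 12.08 and 11.95 in controls and at 12.11, 12.06 and 11.89 in knockdown cells. Each knockdown array was thus slightly lower than the control array of the same number, by less than the spread among controls (difference -0.07, adjusted p 0.835, or -0.0017 without knockdown replicate 3). Eed, which binds the methylated histone tail and stimulates the enzyme, was at 11.35, 11.31 and 11.23 in controls and at 11.25, 11.26 and 11.08 in knockdown cells (-0.10, adjusted p 0.682). Without knockdown replicate 3 the Eed difference was -0.04. The histone chaperones Rbbp4 and Rbbp7, which also serve in other chromatin complexes, differed by 0.05 and 0.03. Second rows of Eed and Rbbp7 differed by -0.03 and 0.00.

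The accessory subunits decide where PRC2 binds. Jarid2, which with Aebp2 defines one form of PRC2 and recognises ubiquitinated H2A, was at 12.52, 12.51 and 12.47 in controls and at 12.55, 12.61 and 12.57 in knockdown cells. These groups did not overlap, yet the difference was small at 0.08 ± 0.06 (adjusted p 0.683), and groups did not overlap for 19.0% of all genes. The Polycomb-like proteins Mtf2, Phf19 and Phf1, which link the other form of PRC2 to CpG-rich DNA, differed by 0.03, 0.00 and 0.03, with overlapping groups. Aebp2 differed by -0.04, or 0.01 without knockdown replicate 3. Over the 11 members in PRC2 the differences ran from -0.10 to 0.08, and 0 had an unadjusted p under 0.05.

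In PRC1, the ubiquitin ligases did not pass the threshold. Rnf2, the main H2A ligase in embryonic stem cells, was at 11.50, 11.49 and 11.43 in controls and at 11.50, 11.57 and 11.34 in knockdown cells (-0.0033 ± 0.08 SE, adjusted p 0.990). Its sign turned when single arrays were left out, from -0.05 to 0.06. Ring1, the paralog ligase, was at 8.02, 8.17 and 8.28 in controls and at 7.94, 8.15 and 8.06 in knockdown cells (-0.11 ± 0.09, adjusted p 0.724). The lowest Ring1 values of both groups were those of replicate 1.

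**Figure D2:**
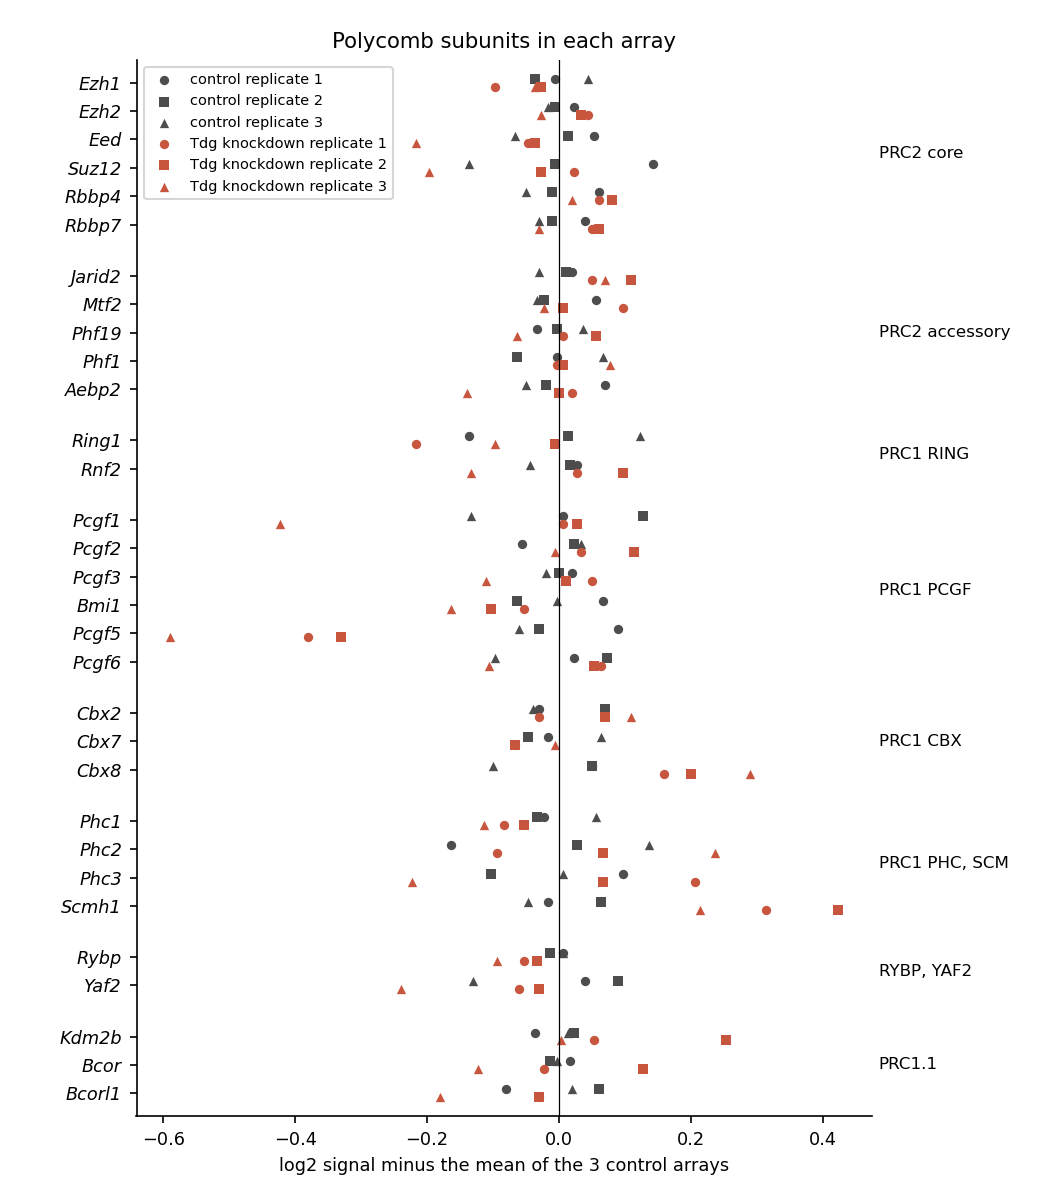
Signal of 31 Polycomb subunits in each of the 6 arrays, as the log2 value minus the mean of the 3 control arrays. Grey marks are control arrays, red marks are Tdg knockdown arrays, and the shape gives the replicate number. Knockdown replicate 3 (red triangles) is the single lowest array for 17 of the 31 genes, and the 3 red marks of Pcgf5 lie left of all its grey ones.

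Among the 6 PCGF genes, Pcgf5 had the largest difference of all members. PCGF5 and its paralog PCGF3 build the variant PRC1 forms that deposit much of the H2A ubiquitin across the genome, and PCGF5 is tied to AUTS2 in neural cells. Pcgf5 was at 8.99, 8.87 and 8.84 in the control arrays and at 8.52, 8.57 and 8.31 in the knockdown arrays. All 3 knockdown values lay below the lowest control value. The difference was -0.43 ± 0.09 (SE, n = 3 each), a signal at 74.1% of the control level. By limma it missed the threshold (adjusted p 0.0871) and it passed with the replicate block (adjusted p 0.0355). It also passed with a trended robust prior (adjusted p 0.0420), with which 2.24% of all genes were called, and with array weights (adjusted p 0.00941), with which 8.19% were. Leaving out single arrays, the difference ran from -0.49 to -0.36 and the adjusted p from 0.0686 to 0.360. Without knockdown replicate 3, its lowest array, it was -0.36 (adjusted p 0.0686).

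The other PCGF genes had overlapping groups. Pcgf3 was at 11.17, 11.15 and 11.13 in controls and at 11.20, 11.16 and 11.04 in knockdown cells, a difference of -0.02 (adjusted p 0.946), or 0.03 without knockdown replicate 3. Pcgf1, the partner of KDM2B and BCOR in PRC1.1, was at 9.05, 9.17 and 8.91 in controls and at 9.05, 9.07 and 8.62 in knockdown cells. Its difference of -0.13 (adjusted p 0.773) rested on knockdown replicate 3, without which it was 0.02. Pcgf2 (MEL18) and Bmi1 (PCGF4), which define canonical PRC1, differed by 0.05 and -0.11, and Pcgf6, the partner of MGA and E2F6 at germline genes, by 0.0033.

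The canonical PRC1 subunits gave 2 of the 3 members with an unadjusted p under 0.05. Scmh1, a mouse homolog of Sex comb on midleg that joins PRC1 through PHC proteins, was at 9.34, 9.42 and 9.31 in controls and at 9.67, 9.78 and 9.57 in knockdown cells. All 3 knockdown arrays were above all control arrays, by 0.32 ± 0.08 on average (SE), or 1.25-fold. The adjusted p was 0.128, and 0.0437 with the replicate block. Leaving out single arrays moved the adjusted p between 0.0608 and 0.402, and without knockdown replicate 3 the difference was 0.37.

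Cbx8, one of the readers of methylated H3, was at 7.05, 7.05 and 6.90 in controls and at 7.16, 7.20 and 7.29 in knockdown cells. The groups did not overlap, and the difference was 0.22 ± 0.07 (adjusted p 0.272, or 0.162 with the replicate block). The adjusted p was 0.373 with the trended robust prior and 0.141 with array weights. Without knockdown replicate 3, its highest array, the difference was 0.18 (adjusted p 0.309). Cbx8 had the lowest control mean of all members, and each of its values lay below the array medians of 7.41 to 7.48. Cbx7, the main CBX protein of undifferentiated embryonic stem cells, differed by -0.05 and Cbx2 by 0.05, both with overlapping groups. The shared row that lists Cbx6 with Npcd and Nptxr was at 8.37, 8.38 and 8.40 in controls and at 8.36, 8.47 and 8.39 in knockdown cells.

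Among the polyhomeotic genes, whose proteins polymerise and cluster canonical PRC1, Phc1 was at 12.41, 12.40 and 12.49 in controls and at 12.35, 12.38 and 12.32 in knockdown cells. The groups did not overlap, and the difference was -0.08 ± 0.06 (adjusted p 0.669). Phc2 and Phc3 varied more between arrays than between groups, with differences of 0.07 and 0.02 and control SDs of 0.15 and 0.10. Without knockdown replicate 3 these differences were -0.01 and 0.14. A second, dimmer row of Phc3 differed by -0.15, the opposite sign, with 7.54, 6.96 and 6.65 in controls and 7.26, 7.02 and 6.43 in knockdown cells.

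**Figure D3:**
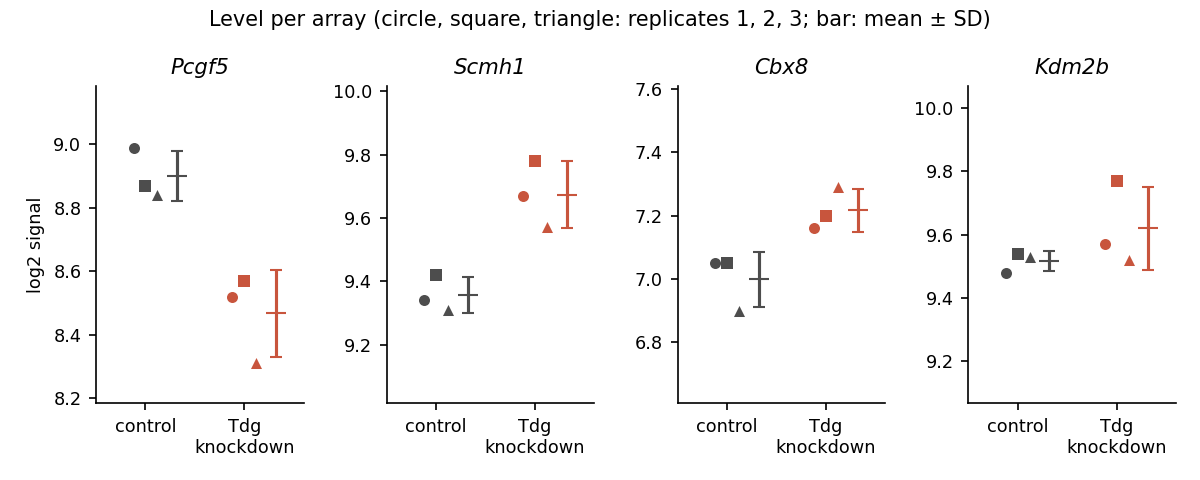
Log2 signal per array for Pcgf5, Scmh1, Cbx8 and Kdm2b in control (grey) and Tdg knockdown (red) cells. Shapes give the replicate number, bars are mean ± SD of 3 arrays, and each axis spans the same log2 range. The groups do not overlap for Pcgf5, Scmh1 and Cbx8, and do for Kdm2b.

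Kdm2b was of interest because 1 label, the extraction protocol, has Kdm2b as the gene knocked down, while titles, genotype and design name Tdg. It was at 9.48, 9.54 and 9.53 in the control arrays and at 9.57, 9.77 and 9.52 in the knockdown arrays. The knockdown arrays were not lower: 2 of 3 lay above the highest control value. The difference was 0.10 ± 0.08 (SE, adjusted p 0.694), with an interval from -0.09 to 0.29. Its partners in PRC1.1, the corepressors Bcor and Bcorl1, differed by -0.0067 and -0.08, with overlapping groups, or by 0.05 and -0.03 without knockdown replicate 3.

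Of the 2 proteins that take the place of CBX in variant PRC1, Rybp was at 11.80, 11.78 and 11.80 in controls and at 11.74, 11.76 and 11.70 in knockdown cells. The groups did not overlap, with a difference of -0.06 ± 0.06 (adjusted p 0.751). A second Rybp row gave -0.04 with overlapping groups. Its paralog Yaf2 differed by -0.11 (adjusted p 0.705), or -0.05 without knockdown replicate 3. In all, groups did not overlap for 6 of the 31 members (19.4%), 3 higher and 3 lower, against 19.0% of all genes (7.98% higher and 11.0% lower).

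Several Polycomb positions can be filled by either of 2 or more related proteins, and 11 such pairs were compared within each array. The log2 difference of Pcgf5 minus Pcgf3 was -2.18, -2.28 and -2.29 in controls and -2.68, -2.59 and -2.73 in knockdown cells, a shift of -0.42. That of Cbx8 minus Cbx7 was -4.34, -4.31 and -4.57 in controls and -4.18, -4.14 and -4.11 in knockdown cells, a shift of 0.26. For these 2 of the 11 pairs the groups did not overlap, while for genes taken singly this was so for 19.0% of all genes. For both pairs the exact two-sided permutation p was 0.1, the smallest possible, or 0.55 adjusted over the pairs. Each pair holds a member already named for its unadjusted p by limma, Pcgf5 or Cbx8, and is not separate evidence. The other 9 pairs overlapped between the groups, with shifts from -0.15 to 0.15. Among them, Ezh2 minus Ezh1 shifted by 0.07 and Rnf2 minus Ring1 by 0.10. Unequal change of paralogs was thus not shown for any pair, as the lowest adjusted p was 0.55. The permutation test could not decide this, since its smallest possible p of 0.1 lies above the threshold. Probe sets differ in brightness, so these values also do not show which paralog is the more abundant.

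**Figure D4:**
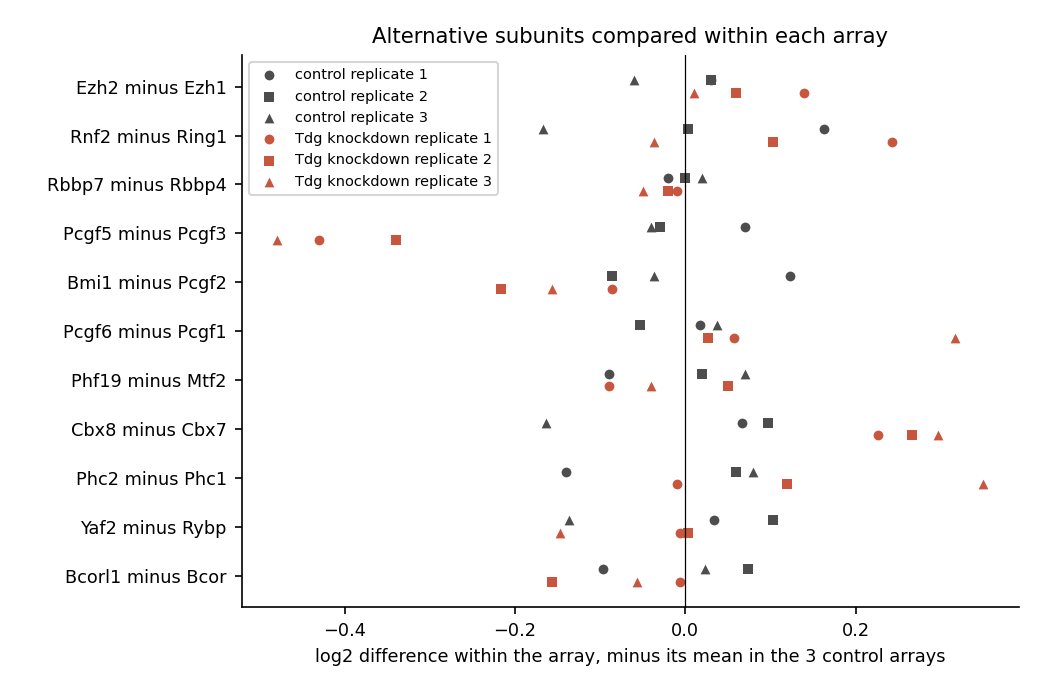
Log2 difference between 2 alternative Polycomb subunits within each array, minus its mean in the 3 control arrays, for 11 pairs. Grey marks are control arrays, red marks are Tdg knockdown arrays, and shapes give the replicate number. The red and grey marks separate for Pcgf5 minus Pcgf3 and for Cbx8 minus Cbx7.

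The promoters of the 3 members with an unadjusted p under 0.05 are shown for their CpG content, since TDG and KDM2B both act at CpG sites. The sequences are from RefSeq (GRCm38.p6), 250 bases before the most upstream start site listed, 5′ to 3′ on the gene's strand, with each CG in capitals. Pcgf5 lies on the plus strand at chr19:36348079-36348328, Scmh1 on the plus strand at chr4:120405098-120405347, and Cbx8 on the minus strand at chr11:119040914-119041163.
Pcgf5: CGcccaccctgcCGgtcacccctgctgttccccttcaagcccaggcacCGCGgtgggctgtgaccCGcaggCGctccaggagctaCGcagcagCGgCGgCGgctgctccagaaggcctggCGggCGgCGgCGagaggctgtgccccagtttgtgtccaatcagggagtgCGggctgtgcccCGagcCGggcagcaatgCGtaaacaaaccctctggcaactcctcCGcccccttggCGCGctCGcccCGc
Scmh1: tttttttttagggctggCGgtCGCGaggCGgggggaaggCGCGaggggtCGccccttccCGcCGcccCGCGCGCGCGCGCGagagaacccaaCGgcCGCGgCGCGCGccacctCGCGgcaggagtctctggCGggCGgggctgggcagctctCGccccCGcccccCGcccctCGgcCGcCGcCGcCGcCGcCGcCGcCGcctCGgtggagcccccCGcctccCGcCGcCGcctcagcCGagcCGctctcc
Cbx8: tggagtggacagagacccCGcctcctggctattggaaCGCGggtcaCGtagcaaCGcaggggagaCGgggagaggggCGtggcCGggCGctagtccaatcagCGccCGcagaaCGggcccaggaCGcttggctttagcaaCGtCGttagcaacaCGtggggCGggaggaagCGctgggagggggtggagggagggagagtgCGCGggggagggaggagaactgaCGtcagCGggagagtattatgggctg
These windows hold 23, 45 and 22 CG. The letters CG, which read the same on both strands, occurred in 92.1% of all 32851 promoter windows of this length, with a median of 6. Of the 32 members, Cbx6 included, 28 had windows in the table, 41 in all with a median of 20 CG. At least 10 CG were held by 33 of these 41 windows (80.5%), against 37.8% of all windows. Windows at other start sites of the genes shown differ: 1 of Scmh1 holds 0 CG, and those of Pcgf5 hold 4 and 28. DNA methylation was not measured in these samples.

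Knockdown replicate 3 was the single lowest of the 6 arrays for 17 of the 31 members (54.8%), against 28.8% of all genes. Members were not alone in this: it was also the lowest for 27 of the 55 partners and opposing factors described below (49.1%). The same held for 6 of the 14 embryonic stem cell markers (42.9%). The median over members, relative to the control mean, was 0.0067, 0.03 and -0.09 in the 3 knockdown arrays and 0.02, -0.0033 and -0.02 in the controls. Without knockdown replicate 3 the median log2 difference of the members was 0.02 in place of -0.0033. Arrays of the same number in the 2 groups deviated from their group means with the same sign for 25 of the 31 members in replicate 1 (80.7%, against 72.5% of all genes), for 15 in replicate 2 (48.4%, against 56.0%) and for 22 in replicate 3 (71.0%, against 74.6%). These shares are near those of all genes, and in replicate 2 as many members, 15, had opposite signs. The part of array differences in the members' values was not tested.

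The wider Polycomb machinery gave no gene past the threshold either. Among 55 measured partners and opposing factors, 0 passed by limma, 7 had an unadjusted p under 0.05 (12.7%, against 12.5% of all genes) and the median difference was 0.01. Of 6 other PRC2 partners, Epop, a PRC2 subunit of embryonic stem cells that also binds elongin, was at 10.12, 10.21 and 10.16 in controls and at 10.40, 10.55 and 10.52 in knockdown cells. Its difference was 0.33 ± 0.07 (adjusted p 0.0927, or 0.0392 with the replicate block). Ezhip, an inhibitor of EZH2, differed by 0.24 (adjusted p 0.168). Of 21 other PRC1 partners, Fbrsl1, a paralog of AUTS2, differed by -0.23 (adjusted p 0.168), and the deacetylase gene Hdac1 by 0.19 (adjusted p 0.300).

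The 9 measured genes of PR-DUB, the complex that removes ubiquitin from H2A, had a median difference of 0.0033. The smallest p were those of Foxk2 (-0.14, adjusted p 0.429) and Asxl1 (0.09, adjusted p 0.660). The 3 H3 demethylase genes of the KDM6 family gave -0.12 for Kdm6b, 0.08 for Uty and 0.06 for Kdm6a, with 0 at an unadjusted p under 0.05. Of 16 genes of the MLL and SET1 complexes, which methylate H3 and oppose Polycomb, Setd1b was at 9.59, 9.46 and 9.62 in controls and at 9.95, 9.93 and 9.87 in knockdown cells. Its groups did not overlap, with a difference of 0.36 ± 0.07 (adjusted p 0.0770, or 0.0459 with the replicate block). Ncoa6 differed by -0.20 (adjusted p 0.373).

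Developmental regulators known as Polycomb targets in embryonic stem cells were also read, as RNA only. Histone marks and Polycomb binding were not measured in these samples. Of 54 measured genes, 1 rose and 1 fell by limma, where 0.792% of all genes were called (0.241% higher and 0.552% lower). Pax6, a regulator of eye and neural development, rose from 8.02, 8.15 and 8.10 to 9.00, 9.20 and 8.87 (0.93 ± 0.09, adjusted p 0.0145). Tbx20, a cardiac T-box factor, fell from 7.80, 7.78 and 7.75 to 7.26, 7.15 and 6.94 (-0.66 ± 0.09, adjusted p 0.0331). With the replicate block the Wnt ligand gene Wnt3 was also lower (-0.37, adjusted p 0.0395, or 0.0980 without the block). Both calls were lost when any single array other than knockdown replicate 3 was left out (adjusted p up to 0.106 for Pax6 and up to 0.213 for Tbx20).

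The median difference of the target genes was 0.11, with 44 of 54 above 0, against 0.02 and 11053 of 19938 over all genes. This shift rested on 2 arrays, knockdown replicate 3 and control replicate 1. The target genes had a median control level of 6.925, against 7.97 over all genes and 9.64 over the subunits. Relative to the control mean their medians were 0.01, -0.0050 and 0.32 in knockdown replicates 1, 2 and 3, and -0.10, 0.02 and 0.08 in the controls. Knockdown replicate 3 was the single highest array for 41 of the 54 (75.9%), against 33.3% of all genes, and without it the median difference was 0.0042, with 28 genes above 0. Control replicate 1 was the single lowest array for 33 of the 54 (61.1%, against 24.1% of all genes), and without it the median difference was 0.02, with 35 genes above 0. Without any 1 of the other arrays it was 0.12 to 0.16. In knockdown replicate 3 the 10 extraembryonic endoderm markers had a median deviation of 0.21, the 9 fibroblast markers 0.17, the 6 neuroectoderm markers 0.32 and the 8 trophoblast markers -0.08. Single markers went the other way. In that array Tagln (fibroblast) was at 8.81 against a control mean of 9.77, and Nes (neuroectoderm) at 8.55 against 9.41. Between the groups Tagln passed the threshold (-0.88, limma adjusted p 0.0318) and Nes did not (-0.60, adjusted p 0.0845). Between-group differences were above 0 for 5 of the 9 fibroblast and 5 of the 6 neuroectoderm markers. Some genes of the marker lists are also in the target list, and the part of the markers in the shift was not tested.

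**Figure D5:**
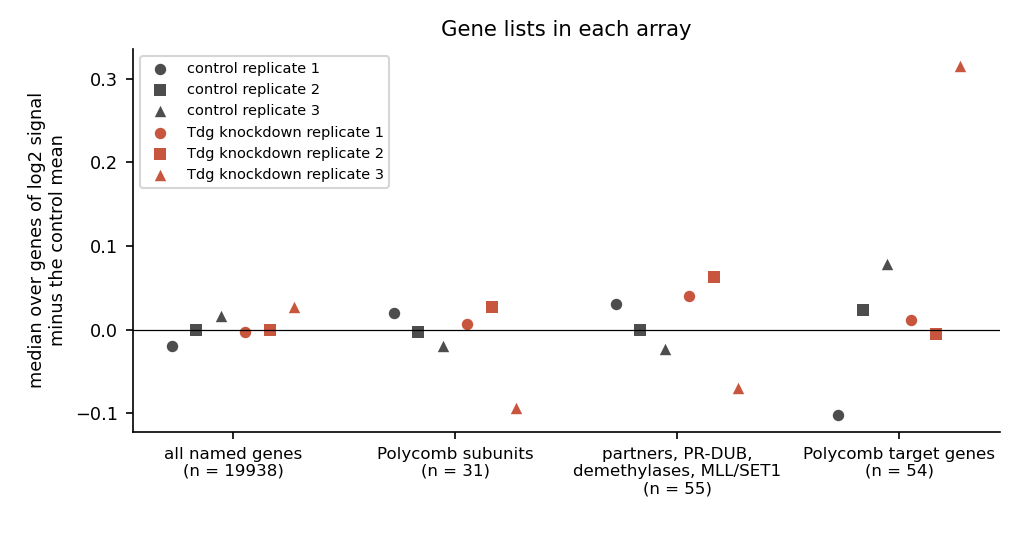
Median over genes of the log2 signal minus the control mean, for 4 gene lists in each of the 6 arrays (grey control, red Tdg knockdown, shapes for replicate numbers). Knockdown replicate 3 is the lowest array for the Polycomb subunits (-0.09) and for the partners and opposing factors (-0.07). It is the highest for the target genes (0.32) and for all genes (0.03). For the subunits and the target genes the other knockdown arrays lie within 0.03 of 0.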

How the data were processed

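The authors deposited log2 signals, 1 per probe set and array. The submitters' processing notes name Affymetrix Expression Console. Summarisation and normalization: not given in the sources used here. Values ran from 2.26 to 14.03, from which the log2 scale was read; signal over background is unknown, and the number of arrays limits precision. Of 35557 rows, 21789 list 1 gene in the platform annotation, and 21698 of these matched RefSeq (GRCm38.p6) by gene identifier.

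Groups were compared by two-sided tests in limma 3.58.1 under R 4.3.3, adjusted over 19938 genes at a threshold of 0.05; the code was tested on simulated data. Deviations of same-numbered arrays from their group means correlated at 0.615, 0.233 and 0.704 across genes. As each exceeded 0.1, the replicate numbers in the titles were treated as pairing in 1 alternative, the replicate block. The fit without the block, used for the results unless another is named, left this pairing out. No label says that same-numbered arrays are pairs, and control replicate 1 with knockdown replicate 2 correlated at 0.443, above the second pair. The block was thus chosen from the same values that it was used to test. The members, lists and tests were chosen with earlier results of these data known. Values per array are given for Kdm2b, the catalytic subunits and members with an unadjusted p under 0.05; other lists give up to 3 called genes per direction, or the 2 with the smallest p; further members were added after their values were seen. Alternatives were the replicate block, quantile normalization, median centring, a filter on low rows, a trended robust prior, array weights, averaged rows per gene, all rows tested, single arrays left out and, added later, same-numbered pairs left out.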

Additional observations from a re-analysis of the deposited data

How the results depend on the processing

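Both directions of Pcgf5 and Scmh1 held in every alternative run. Pcgf5 passed with the replicate block (-0.43), the trended robust prior (-0.43) and array weights (-0.36), and Scmh1 with the replicate block (0.32) and array weights (0.30). The counts past the threshold for all genes, members, other pathway genes and targets were 158, 0, 0 and 2 as reported. They were 614, 2, 2 and 3 with the replicate block, 446, 1, 2 and 2 with the trended robust prior, 1633, 2, 4 and 5 with array weights, 351, 0, 1 and 2 with the filter on low rows, and 12, 0, 0 and 0 with all rows tested. The default fit of array weights did not converge, so they were estimated gene by gene, with 0.197 for knockdown replicate 3 and 3.74 for control replicate 2. Without single arrays the counts were 0 to 291 for all genes, 0 for members and other pathway genes, and 0 to 2 for targets. The 291 came without knockdown replicate 3, while leaving out replicate 1 of either group or control replicate 2 left 0. With the replicate block and without any 1 pair, 0 genes passed (1584 to 4486 at an unadjusted p under 0.05), in fits with fewer arrays. Separated paralog pairs numbered 2 as reported. With every array kept, they numbered 3 with quantile normalization and 3 with averaged rows per gene. Without single arrays they numbered 3 to 4. Groups of 2 against 3 arrays separate more easily, so the counts without single arrays cannot be compared with the others. Rnf2, at -0.0033, turned to 0.027 with array weights, 0.04 with the replicate block without pair 3, and ran from -0.053 to 0.062 without single arrays. The replicate block changed no other call among the members. The cause of these changes was not tested.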
